A study of Mus musculus with 12 samples.

Results

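Metallothioneins, the zinc-sensing transcription factor gene Mtf1 and zinc transporter genes were examined in mouse neural precursor cells exposed to hydrogen peroxide. The set was given as 10 gene symbols (Mt1, Mt2, Mt3, Mtf1, Slc30a1, Slc30a4, Slc30a5, Slc39a1, Slc39a6 and Slc39a10), and all 10 were found among the 15478 genes of the authors' deposited table of tests. The cells were primary neural precursors of adult female C57BL/6 mice aged 5 to 12 weeks, grown undifferentiated in culture. The treated groups received 100 µM H2O2 for 1 h or for 8 h, and the control group received phosphate-buffered saline as a sham exposure, with 4 biological replicates in each of the 3 groups. According to the series' design, each of 4 animals supplied 1 sample to every group, and no transgene or mutation is named for any group. Poly-A RNA was sequenced. No source used here states when the sham-treated cells were harvested, so hours in culture and peroxide cannot be told apart. The tables used here compare groups and hold no value of a single sample, so levels in single samples and the overlap of groups were not analysed. Depth per sample is likewise unknown, and the tables are named as having outlier samples removed, so at most 4 samples per group stand behind each test. A value after ± is a standard error computed here from the authors' fold change and likelihood ratio, and it does not separate animals from technical repeats. A gene counted as called where the authors' edgeR likelihood ratio test gave an adjusted p below 0.05, corrected over all genes of the table.

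Metallothioneins are small cysteine-rich proteins that bind zinc and copper through thiolate groups, and oxidants can release zinc from those groups. MTF-1, the product of Mtf1, is the zinc finger factor that senses free zinc and switches on Mt1, Mt2 and the zinc exporter gene Slc30a1 through metal response elements, while it represses the zinc importer gene Slc39a10. SLC30 proteins, also called ZnT, move zinc out of the cytosol into vesicles or out of the cell, and SLC39 proteins, also called ZIP, move it into the cytosol. In the brain, Mt1 and Mt2 are mainly glial genes and Mt3 is enriched in neural tissue.

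The windows at the starts of Mt1, Mt2 and Slc30a1 are shown because MTF-1 acts on these genes. They also had the largest 1 h rises among the 10 genes. The window of Mt3 is shown beside them because it too is a metallothionein gene. Each window holds 250 bases before and 50 bases after the RefSeq start, on GRCm38.p6. All are on the plus strand, at chr8:94178839-94179138 for Mt1, chr8:94172368-94172667 for Mt2, chr8:94152357-94152656 for Mt3 and chr1:191906531-191906830 for Slc30a1. Capitals mark the core of the metal response element, TGCACNC or TGCGCNC, on either strand, and no matches overlap each other.
Mt1: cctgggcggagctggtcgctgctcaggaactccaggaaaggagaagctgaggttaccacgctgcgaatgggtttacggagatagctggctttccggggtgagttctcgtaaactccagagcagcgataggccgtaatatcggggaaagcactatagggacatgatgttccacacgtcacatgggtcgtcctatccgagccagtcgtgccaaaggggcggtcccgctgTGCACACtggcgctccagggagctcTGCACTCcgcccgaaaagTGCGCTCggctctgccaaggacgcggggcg
Mt2: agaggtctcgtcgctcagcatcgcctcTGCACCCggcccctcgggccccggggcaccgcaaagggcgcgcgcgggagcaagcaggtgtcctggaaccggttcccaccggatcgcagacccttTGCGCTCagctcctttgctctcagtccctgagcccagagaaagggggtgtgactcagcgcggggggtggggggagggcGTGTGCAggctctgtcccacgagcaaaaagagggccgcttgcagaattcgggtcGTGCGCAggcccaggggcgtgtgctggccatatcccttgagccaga
Mt3: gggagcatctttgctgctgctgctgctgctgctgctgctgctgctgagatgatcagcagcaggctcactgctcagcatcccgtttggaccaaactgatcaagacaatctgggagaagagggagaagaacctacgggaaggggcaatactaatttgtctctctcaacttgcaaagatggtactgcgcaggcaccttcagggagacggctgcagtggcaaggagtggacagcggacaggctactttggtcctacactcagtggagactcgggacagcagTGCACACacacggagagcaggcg
Slc30a1: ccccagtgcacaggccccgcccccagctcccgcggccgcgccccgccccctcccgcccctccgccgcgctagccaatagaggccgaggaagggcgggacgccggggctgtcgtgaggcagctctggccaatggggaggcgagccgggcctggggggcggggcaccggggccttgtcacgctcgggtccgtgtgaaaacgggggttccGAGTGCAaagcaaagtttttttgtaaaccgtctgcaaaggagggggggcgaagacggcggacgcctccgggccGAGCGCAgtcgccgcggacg
The Mt2 window holds 4 cores, that of Mt1 holds 3, that of Slc30a1 holds 2 and that of Mt3 holds 1. Among 14226 windows of the same length that belong to genes of the table by symbol, 36.1% hold at least 1 core, 11.5% at least 2, 3.23% at least 3 and 0.865% at least 4. The Slc30a4 window holds 3 cores and the Slc30a5 window 1. None was found in the windows of Mtf1 and Slc39a1 or in either of the windows listed for Slc39a10. Neither window of Slc39a10 lies at the GENCODE start of that gene, and the Mtf1 window does not cover the GENCODE start of Mtf1. The Mt2 window ends at 94172667, just past the GENCODE start of Mt2 at 94172664. The lack of a match says only that these letters are absent from the windows. A window was found for 9 of the 10 genes.

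Per kilobase of exon, the metallothioneins were the most abundant of the 10 transcripts and Mtf1 the least. The following levels are means over all samples of the authors' fit, in CPM (counts scaled to a fixed library total) per kilobase, computed from the mean log2 CPM and the exon length in the authors' deposited table. Mt3 had 205 CPM per kb, above 99.2% of the genes of the table on this scale. Mt2 followed with 168 and Mt1 with 88.8 CPM per kb. The importer genes Slc39a6 and Slc39a1 had 48.3 and 45.3 CPM per kb. Slc30a4 had 22.2 and Slc39a10 21.7 CPM per kb. Slc30a1 and Slc30a5 stood at 10.9 and 10.8 CPM per kb, and Mtf1 at 4.61 CPM per kb, above 47.3% of genes. Without values of single samples the spread around these levels is unknown, so the order of close neighbours such as Slc30a1 and Slc30a5 is not established. The order also rests on the exon lengths in the authors' deposited table, which are 1246 bases for Mt1, as long as its whole span, and 588 bases for Mt2. On the mean log2 CPM of that table, not divided by length, Mt1 (6.79) stands above Mt2 (6.62), and Slc39a6 (7.62), Slc39a10 (7.04) and Slc30a4 (6.93) stand above both, while Mt3 (7.77) stays highest.

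**Figure D1:**
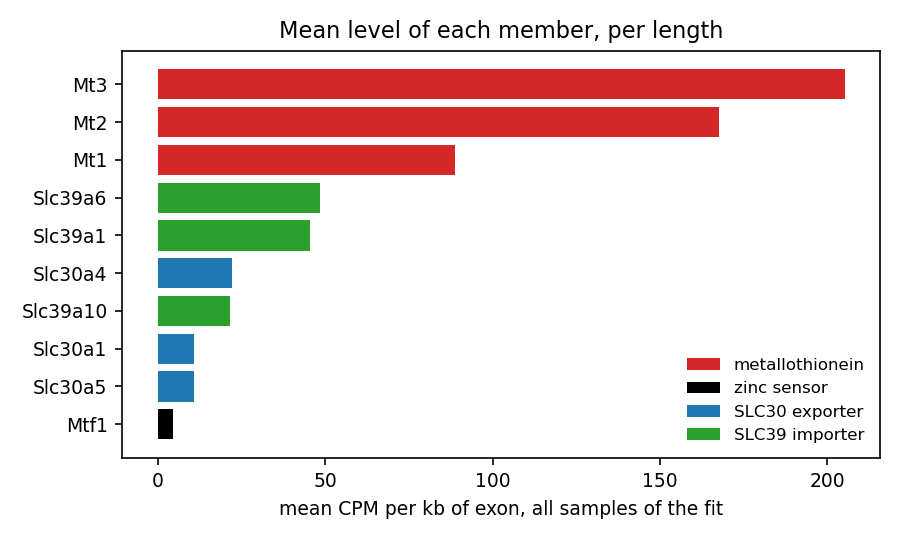
Bars give the mean level of each of the 10 genes in CPM per kb of exon, over all samples of the authors' fit, coloured by role. The 3 metallothioneins stand at the top, from 88.8 to 205 CPM per kb, and Mtf1 is lowest at 4.61.

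Against control, 3 of the 10 genes rose and 1 fell after 1 h of peroxide. Among all genes, 42.7% were called at 1 h, 20.5% as rises and 22.2% as falls. After 8 h, 5 of the 10 rose and 0 fell, where 55.7% of all genes were called, 27.4% as rises and 28.2% as falls. Between 8 h and 1 h, 9 of the 10 were called, 7 of them higher and 2 lower at 8 h, where 62.7% of all genes were called, 30.3% as higher and 32.4% as lower. In the authors' voom table, the source of the alternative calls below, 41.5% of genes were called at 1 h, 52.8% at 8 h and 59.8% between the times. The share called at 1 h was thus close to that of the table. The median log2 fold change of the 10 genes was 0.04 at 1 h and 0.15 at 8 h, beside 0.01 at both times for all genes. Both comparisons use the same control samples, so the values at 1 h and 8 h are not independent.

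**Figure D2:**
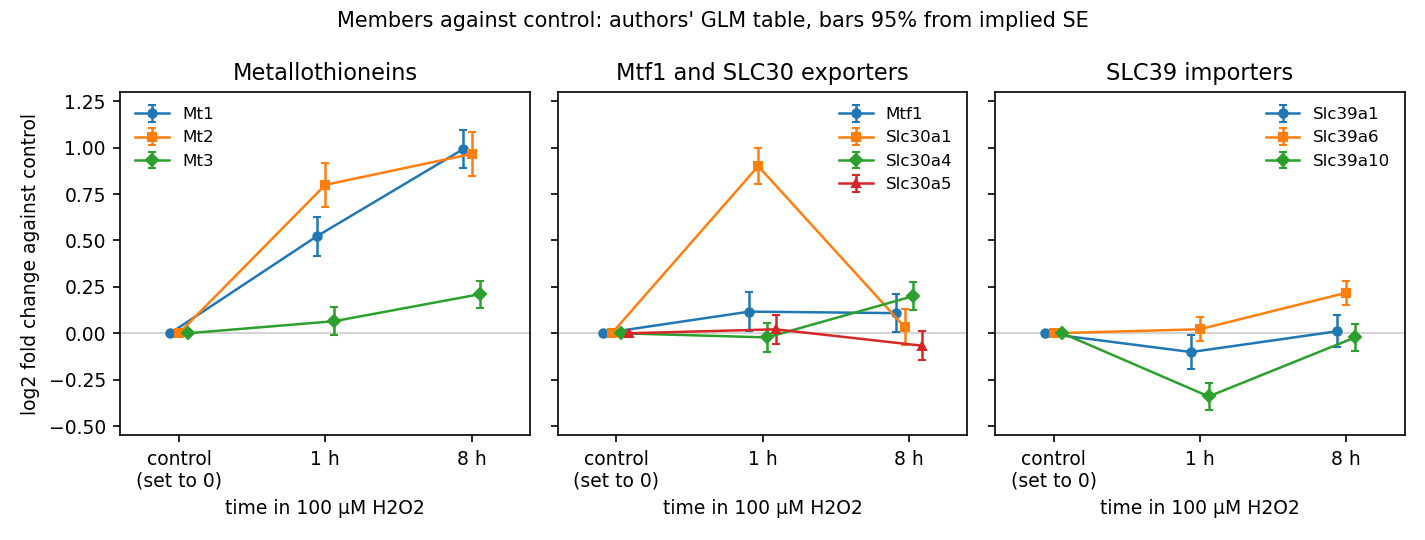
Log2 fold change against control (vertical axis) after 1 h and 8 h in 100 µM H2O2, with control set to 0, for the metallothioneins (left), Mtf1 and the SLC30 genes (middle) and the SLC39 genes (right). Bars are 95% intervals from the implied standard error. Slc30a1 is at 0.90 at 1 h and 0.03 at 8 h, whereas Mt1 and Mt2 are near 1 at 8 h.

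The inducible metallothionein genes Mt1 and Mt2 rose by 1 h and were higher still at 8 h. In the authors' deposited table Mt2 was 1.74-fold higher than control at 1 h, a log2 fold change of 0.80 ± 0.06 (adjusted p 3.3e-38). Its log2 fold change at 8 h was 0.97 ± 0.06, or 1.95-fold (adjusted p 4.3e-58). Most of the Mt2 change was therefore present at 1 h, when its log2 value was 82.8% of that at 8 h. Mt1 was 1.44-fold above control at 1 h in the authors' deposited table, with a log2 fold change of 0.52 ± 0.05 (adjusted p 8.0e-21). At 8 h Mt1 was 1.99-fold above control, with a log2 fold change of 0.99 ± 0.05 (adjusted p 1.3e-78). For Mt1 the 1 h value was 52.6% of the 8 h value. The authors' test of 8 h against 1 h gave 0.47 ± 0.05 for Mt1 (adjusted p 3.4e-19) and 0.17 ± 0.06 for Mt2 (adjusted p 0.0074). Whether the 2 genes differ from each other in timing was not tested. Rises in all 3 comparisons, as seen for Mt1 and Mt2, were called for 2.75% of the genes of the table.

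Mt3, the neural metallothionein, changed little. Its log2 fold change in the authors' deposited table was 0.06 ± 0.04 at 1 h (adjusted p 0.16), with a 95% interval from -0.01 to 0.14. At 8 h Mt3 had risen by 0.21 ± 0.04, or 1.16-fold (adjusted p 5.2e-08), and the 8 h against 1 h value was 0.15 ± 0.04 (adjusted p 2.0e-04). The most abundant metallothionein transcript thus had the smallest log2 fold change of the 3 at both times. Mt4, the fourth mouse gene of the family, is not among the genes of the table.

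Mt3, Mt2 and Mt1 lie in a row on the plus strand of chromosome 8 on GRCm38, at 94152607-94154146, 94172664-94173568 and 94179082-94180327. Mt1 starts 5.51 kb past the end of Mt2, and Mt2 18.5 kb past the end of Mt3. Beyond them, the table's genes within 100 kb of Mt1 are Bbs2, Nup93 and the antisense gene Gm45774. Bbs2, a ciliary protein gene 80.2 kb away, had a log2 fold change of -0.04 ± 0.08 at 1 h (adjusted p 0.69) and 0.03 ± 0.08 at 8 h (adjusted p 0.75) in the authors' deposited table. The nuclear pore gene Nup93, 34.2 kb on the other side, fell by 0.10 ± 0.04 at 1 h (adjusted p 0.020) and rose by 0.14 ± 0.04 at 8 h (adjusted p 2.4e-04) in the authors' deposited table. Neither neighbour showed a change of the size seen in Mt1 and Mt2.

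Gm45774 overlaps Mt2 on the opposite strand, and 45.8% of the 50-base stretches of the annotated Mt2 transcripts are also found in it as the reverse complement. In the authors' deposited table Gm45774 rose by 1.33 ± 0.39 at 1 h (adjusted p 0.0026) and by 1.77 ± 0.35 at 8 h (adjusted p 1.3e-06), at a mean of -0.42 log2 CPM against 6.62 for Mt2. The library kit keeps strand, but the strand setting of the counting is not stated in these sources, so reads of Mt2 and Gm45774 cannot be told apart with certainty. No 50-base stretch of Mt1 or Mt3 is shared with a transcript of another gene.

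Mtf1 itself was not called in any comparison. Its log2 fold change in the authors' deposited table was 0.12 ± 0.05 at 1 h (adjusted p 0.070) and 0.11 ± 0.05 at 8 h (adjusted p 0.064). The 95% intervals, not corrected for the number of genes, run from 0.01 to 0.22 at 1 h and from 0.01 to 0.21 at 8 h, and their upper bounds correspond to 1.17-fold at 1 h and 1.16-fold at 8 h. Between 8 h and 1 h its value was -0.01 ± 0.05 (adjusted p 0.90). These values concern the transcript and say nothing of the activity of the MTF-1 protein. Mtf1 overlaps the antisense gene 1110065P20Rik in 7.55% of its 50-base stretches.

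Slc30a1, which encodes the plasma membrane zinc exporter ZnT1, had the largest 1 h rise of the 10 genes and was back near control at 8 h. It was 1.87-fold higher at 1 h in the authors' deposited table, a log2 fold change of 0.90 ± 0.05 (adjusted p 1.9e-70). Among the 15478 genes, 28 had a larger likelihood ratio at 1 h and 720 a higher log2 fold change. At 8 h its value was 0.03 ± 0.05 (adjusted p 0.59), with a 95% interval from -0.07 to 0.13. The authors' test of 8 h against 1 h gave a fall of Slc30a1 by 0.87 ± 0.05, or 1.82-fold (adjusted p 9.7e-71). A rise at 1 h, no call at 8 h and a fall between them were found for 6.93% of genes. Slc30a1 lies on chromosome 1 at 191906767-191913247 on GRCm38. The antisense gene 1700034H15Rik overlaps it, with 8.01% of the 50-base stretches of Slc30a1 found there. That gene followed the same course, with 0.99 ± 0.23 at 1 h (adjusted p 7.5e-05) and -0.19 ± 0.25 at 8 h (adjusted p 0.53) in the authors' deposited table, at a mean of 0.45 log2 CPM against 5.83 for Slc30a1. As for Mt2, the strand setting is not stated, so its reads and those of Slc30a1 cannot be told apart with certainty.

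Slc39a10, which encodes the plasma membrane zinc importer ZIP10, ran the opposite way. At 1 h its log2 fold change in the authors' deposited table was -0.34 ± 0.04, or 0.790 of the control level (adjusted p 5.9e-18). At 8 h the value was -0.02 ± 0.04 (adjusted p 0.62), with a 95% interval from -0.09 to 0.05. Between 8 h and 1 h Slc39a10 rose by 0.32 ± 0.04, or 1.25-fold (adjusted p 7.5e-17). Such a fall at 1 h with no call at 8 h and a rise between them was found for 6.39% of genes. Slc39a10 lies on the minus strand of chromosome 1 at 46807544-46892852 on GRCm38, and Gm28151 overlaps it on the same strand. Gm28151 rose by 0.67 ± 0.18 at 1 h in the authors' deposited table (adjusted p 0.0011) and had 0.15 ± 0.18 at 8 h (adjusted p 0.50), at a mean of 1.14 log2 CPM against 7.04 for Slc39a10.

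**Figure D3:**
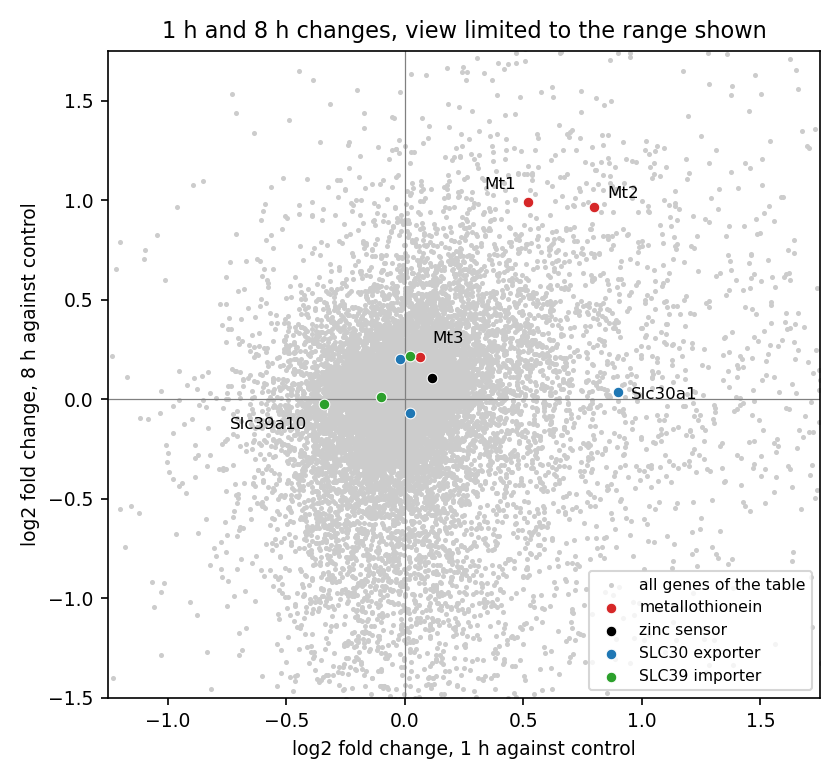
Each point is a gene, with its log2 fold change against control at 1 h (horizontal axis) and at 8 h (vertical axis), for all genes in grey and the 10 genes coloured by role. The view leaves out genes beyond the axis limits. Mt1 and Mt2 lie at the upper right, Slc30a1 on the horizontal axis at 0.90 and Slc39a10 on it at -0.34. The 2 axes share the control samples.

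Across the protein-coding genes of the table, the 1 h change moved with the span of the gene. In the shortest eighth of 13263 protein-coding genes, up to 5.74 kb, the median log2 fold change at 1 h was 0.12, and in the longest eighth it was -0.25. Slc39a10 spans 85.3 kb and belongs to the seventh eighth, whose median was -0.14 and in which 48.9% of genes fell. Its own value of -0.34 was lower than that of 89.5% of the genes in that eighth. Slc30a1 spans 6.48 kb, and its 1 h value exceeded that of 93.7% of the genes in its eighth, whose median was 0.08. Mt2 and Mt1 lie in the shortest eighth, and their 1 h values exceeded those of 91.0% and 85.1% of its genes. Mt3, in the same eighth, exceeded 35.8%. Slc39a1 is also in that eighth, and its 1 h value of -0.10, not called, was lower than that of 88.8% of its genes. A low value for its span was thus not particular to Slc39a10. Mtf1 exceeded 79.6% of the genes in its eighth. Slc30a4, Slc39a6 and Slc30a5 exceeded 35.2%, 45.9% and 53.6% of theirs. The part of gene span in the change of any of these genes was not tested.

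**Figure D4:**
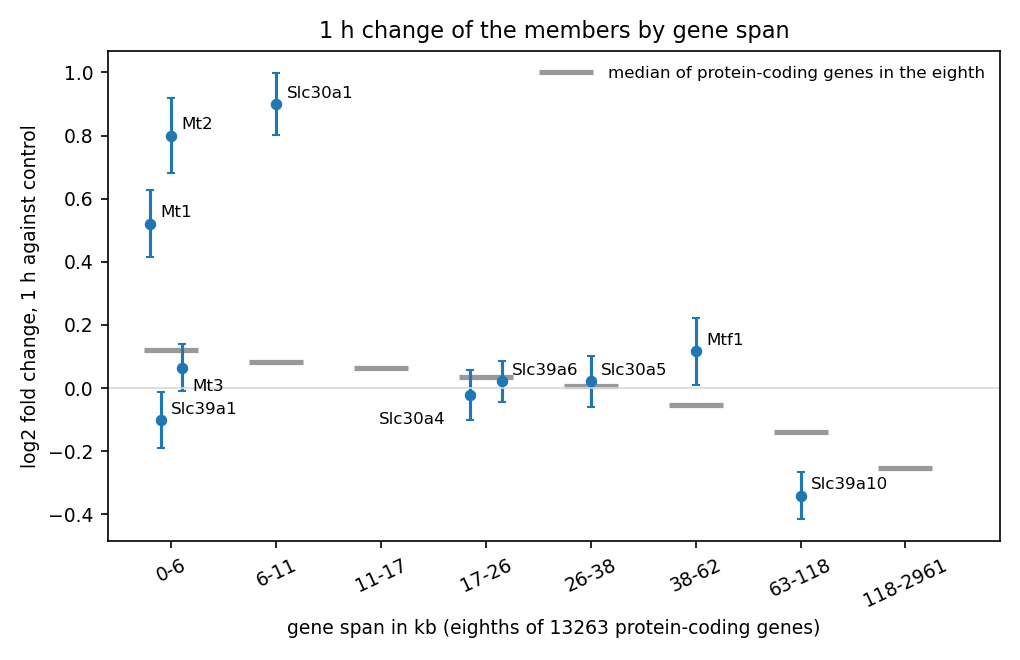
Points give the log2 fold change at 1 h against control of the 10 genes, placed by gene span in eighths of the protein-coding genes, with 95% bars from the implied standard error. Grey dashes give the median of each eighth and run from 0.12 in the shortest to -0.25 in the longest. Slc30a1, Mt1, Mt2 and Mtf1 lie above the dash of their eighth, and Slc39a10 and Slc39a1 below theirs.

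The other SLC30 genes of the set moved by at most 0.22 on the log2 scale in any comparison. Slc30a4, whose product ZnT4 loads zinc into vesicles, had -0.02 ± 0.04 at 1 h (adjusted p 0.69) and rose by 0.20 ± 0.04 at 8 h, or 1.15-fold (adjusted p 1.1e-06), in the authors' deposited table. Between 8 h and 1 h it rose by 0.22 ± 0.04 (adjusted p 5.6e-08). Slc30a5 encodes ZnT5, a transporter of the early secretory pathway, and had 0.02 ± 0.04 at 1 h (adjusted p 0.71) and -0.07 ± 0.04 at 8 h (adjusted p 0.14). Only its 8 h against 1 h value of -0.09 ± 0.04 was called among the 3 comparisons (adjusted p 0.043), a call that ends at a threshold of 0.01.

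Among the other importer genes of the set, Slc39a6 encodes ZIP6, the closest relative of ZIP10. Unlike Slc39a10 it had 0.02 ± 0.03 at 1 h in the authors' deposited table (adjusted p 0.64). At 8 h Slc39a6 rose by 0.22 ± 0.03, or 1.16-fold (adjusted p 1.1e-10), and its value for 8 h against 1 h was 0.20 ± 0.03 (adjusted p 7.8e-09). Elp2, which overlaps Slc39a6 on the opposite strand, rose by 0.10 ± 0.03 at 8 h in the authors' deposited table (adjusted p 0.0041), and no 50-base stretch of their annotated transcripts is shared. Slc39a1, the gene of the plasma membrane importer ZIP1, had -0.10 ± 0.05 at 1 h (adjusted p 0.061) and 0.01 ± 0.04 at 8 h (adjusted p 0.86). In the authors' deposited voom table its 1 h fall was called, at -0.11 with an adjusted p of 0.038. Between 8 h and 1 h Slc39a1 rose by 0.11 ± 0.05 (adjusted p 0.022), which ends at a threshold of 0.01. Of its 50-base stretches, 21.8% also occur in the pseudogene Slc39a1-ps. The values of Slc39a1 are uncertain for that reason, by an amount that was not tested. The pattern of Mt3, Slc30a4 and Slc39a6, with no call at 1 h and rises at 8 h and between the times, was shared by 11.1% of genes.

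Across the whole SLC30 family, 7 of 10 genes are in the table. At 1 h 1 rose, which was Slc30a1, and 1 fell, with a family median of -0.02 beside 0.01 for all genes. At 8 h 2 rose and 0 fell, with a median of 0.03. Between 8 h and 1 h 4 rose and 3 fell. Among all genes, 42.7% were called at 1 h, 55.7% at 8 h and 62.7% between the times. Slc30a6, whose product pairs with ZnT5, fell by 0.33 ± 0.07 at 1 h in the authors' deposited table (adjusted p 2.9e-05) and had 0.04 ± 0.07 at 8 h (adjusted p 0.60). Between 8 h and 1 h Slc30a6 rose by 0.37 ± 0.07 (adjusted p 2.8e-07) and Slc30a9 by 0.14 ± 0.04 (adjusted p 7.5e-04). Slc30a9 rose by 0.09 ± 0.04 at 8 h (adjusted p 0.047), a call that is lost in the voom table and at a threshold of 0.01. Slc30a7, encoding a Golgi zinc transporter, had -0.10 ± 0.05 at 1 h (adjusted p 0.075) and rose between 8 h and 1 h by 0.12 ± 0.05 (adjusted p 0.018). Slc30a10, a manganese exporter gene, had a mean of -0.19 log2 CPM and no call against control. Its 8 h against 1 h value of -0.75 ± 0.35 was called (adjusted p 0.049), a call that is lost in the voom table and at a threshold of 0.01.

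The SLC39 family had 12 of 14 genes in the table, of which 1 rose and 3 fell at 1 h and 4 rose and 3 fell at 8 h, where 42.7% of all genes were called at 1 h and 55.7% at 8 h. At a threshold of 0.01 the 1 h count drops to 1, Slc39a10, and the 1 h calls of Slc39a13, Slc39a11 and Slc39a2 given below are lost. Its median log2 fold change was -0.06 at 1 h and 0.04 at 8 h, and between 8 h and 1 h 7 genes rose and 2 fell. Beside Slc39a6, the 8 h rises were those of Slc39a7, Slc39a14 and Slc39a13. Slc39a7, which releases zinc from the endoplasmic reticulum, rose at 8 h by 0.41 ± 0.06 in the authors' deposited table (adjusted p 4.6e-12). Slc39a14, an importer of zinc, iron and manganese, rose by 0.32 ± 0.04 (adjusted p 2.3e-12). Slc39a13, a gene of the secretory pathway, had -0.17 ± 0.06 at 1 h (adjusted p 0.021) and 0.26 ± 0.06 at 8 h (adjusted p 1.8e-05), both called and opposite in sign. Slc39a11 fell at both times, by 0.19 ± 0.07 at 1 h (adjusted p 0.012) and 0.18 ± 0.06 at 8 h (adjusted p 0.0098), in the authors' deposited table. The low-level gene Slc39a2, at a mean of 1.53 log2 CPM, rose by 0.48 ± 0.17 at 1 h (adjusted p 0.012) and fell by 0.66 ± 0.18 at 8 h (adjusted p 5.6e-04). Slc39a12, at -0.20 log2 CPM, had -0.09 ± 0.27 at 1 h (adjusted p 0.82) and fell by 1.09 ± 0.28 at 8 h (adjusted p 3.0e-04). Slc39a9 was called only between 8 h and 1 h, with 0.13 ± 0.04 (adjusted p 0.0036), and 2 genes of the family were called in none of the 3 comparisons.

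**Figure D5:**
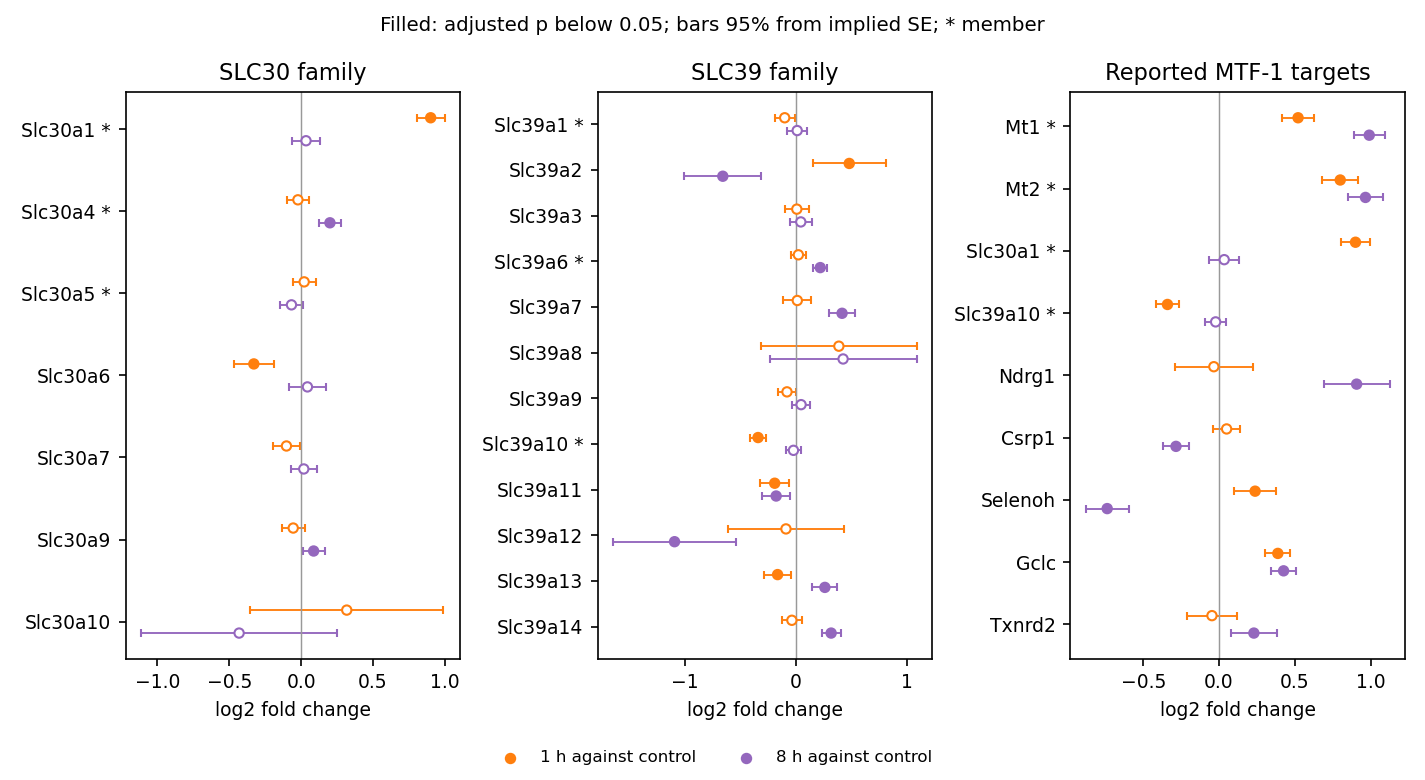
Log2 fold change against control at 1 h (orange) and 8 h (purple) of the table's SLC30 genes, SLC39 genes and reported MTF-1 targets, with 95% bars from the implied standard error. Filled points have an adjusted p below 0.05, and a star marks the 10 genes of the set. In the right panel the reported targets spread from -0.74 to 0.99 at 8 h.

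A list of 10 genes reported as MTF-1 targets was set beside these values, 4 of which belong to the set, and 9 are in the table. At 1 h 5 rose and 1 fell (median 0.24), and at 8 h 5 rose and 2 fell (median 0.23), beside a median of 0.01 for all genes at both times and 42.7% of all genes called at 1 h and 55.7% at 8 h. Of these 9, 4 are genes of the set itself, chosen with earlier results known. Of the 5 that are not in the set, 2 rose at 1 h (median 0.05), and 3 rose and 2 fell at 8 h (median 0.23). Gclc encodes the catalytic subunit of glutamate-cysteine ligase, an enzyme of glutathione synthesis, and is also a target of NRF2. Gclc rose by 0.39 ± 0.04 at 1 h (adjusted p 1.8e-18) and 0.43 ± 0.04 at 8 h (adjusted p 1.1e-23) in the authors' deposited table. Selenoh, a nucleolar selenoprotein gene, rose by 0.24 ± 0.07 at 1 h (adjusted p 0.0029) and fell by 0.74 ± 0.07 at 8 h (adjusted p 3.0e-23). Ndrg1, a stress- and hypoxia-responsive gene, had -0.03 ± 0.13 at 1 h (adjusted p 0.86) and rose by 0.91 ± 0.11 at 8 h (adjusted p 2.0e-15). Csrp1 fell at 8 h by 0.28 ± 0.04 (adjusted p 3.8e-10), and the mitochondrial thioredoxin reductase gene Txnrd2 rose by 0.23 ± 0.08 (adjusted p 0.0071). The reported targets therefore did not share 1 course: at 8 h Mt1, Mt2 and Ndrg1 had log2 fold changes from 0.91 to 0.99, and Slc30a1 had 0.03.

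The labelled cell type was checked against marker genes. All 13 neural stem and progenitor markers are in the table, Nes and Sox2 with means of 10.59 and 8.43 log2 CPM. Of these 13, 2 rose and 3 fell at 1 h, and 4 rose and 7 fell at 8 h. For this and the marker counts below, 20.5% of all genes rose and 22.2% fell at 1 h. At 8 h 27.4% of all genes rose and 28.2% fell, and the median of all genes was 0.01 at both times. Of 6 astrocyte markers in the table, out of 7 listed, 0 rose and 5 fell at 1 h (median -0.29) and likewise 0 rose and 5 fell at 8 h (median -0.46). Gfap, which encodes the astrocyte filament protein, had -0.25 ± 0.08 at 1 h (adjusted p 0.0058) and -0.49 ± 0.08 at 8 h (adjusted p 4.1e-09) in the authors' deposited table. The 8 oligodendrocyte lineage markers had 0 rises and 4 falls at 1 h, and 0 rises and 7 falls at 8 h (median -0.78). The 6 neuronal markers had 0 rises and 2 falls at 1 h, and 0 rises and 5 falls at 8 h (median -1.19). Olig2 had -0.64 ± 0.04 at 1 h and -0.21 ± 0.04 at 8 h in the authors' deposited table. Dcx had -0.29 ± 0.09 at 1 h and -1.62 ± 0.10 at 8 h. Of 6 microglial markers 2 are in the table, at means from -0.76 to 0.37 log2 CPM, and of 6 endothelial and mural markers 4, from -1.23 to 0.08 log2 CPM. Aif1 and Cldn5 are not among them. The microglial markers had 1 rise at 1 h and 0 calls at 8 h, and the endothelial and mural markers 1 rise at 1 h, with 1 rise and 1 fall at 8 h. Of 4 ependymal markers 3 are in the table, with 1 rise at 1 h and 2 at 8 h. In such bulk samples fewer cells of a type and less RNA per cell cannot be told apart, and the part of cell composition in the changes of the 10 genes was not tested.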

How the data were processed

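Reads were counted per gene by the authors with featureCounts, per the file headers, and the submitters' processing notes name genome build GRCm38. Per the file headers, the authors ran likelihood ratio tests in the edgeR GLM pipeline on tagwise dispersions. Another table of theirs used voom, sample weights and limma. No source used here names tool versions, the aligner, the outliers removed or the depth per sample. The deposited fold changes and mean levels are log2 values, with mean levels in log2 CPM. The likelihood ratio and the moderated t, B and F columns are deposited as test statistics, each a score. Columns of p-values, also deposited, hold raw and Benjamini-Hochberg adjusted values. Other deposited columns hold exon length and the authors' calls. Their gene set tests were not used.

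Columns of per-sample values numbered 0, so no model was fitted here and the authors' GLM table, the planned main source, was read as deposited. Dividing the size of the log2 fold change by the root of its likelihood ratio gave the implied standard error, and 95% intervals use the normal distribution. Its median ratio to the voom error lay between 1.00 and 1.06 in the 3 comparisons. The deposited adjusted p matched a correction recomputed over the 15478 genes, and 0 calls differed. Spans, positions and overlaps come from GENCODE M21, promoter windows from RefSeq. Values were computed with pandas 2.3.3 and numpy 2.4.6.

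All 10 members are described in every comparison. Of the other lists, genes called in at least 1 comparison may be named, with the marker genes and neighbours of Mt1 set down in the same rule. The members and lists were chosen with earlier results of these data known. Genes that overlap a member, Gm28151, 1700034H15Rik, 1110065P20Rik and Elp2, were added after their values were seen. The alternatives were the voom table, a threshold of 0.01, a filter at a mean of 1 log2 CPM and centring on the median of all genes.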

Additional observations from a re-analysis of the deposited data

Results flagged for a closer look

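The change against the shared control differed between 1 h and 8 h of peroxide for 9 of the 10 genes, by the authors' test of 8 h against 1 h, in a comparison where 62.7% of all genes were called. The log2 difference of 8 h from 1 h in the authors' deposited table was -0.87 for Slc30a1 and -0.088 for Slc30a5. It was 0.47 for Mt1, 0.17 for Mt2 and 0.15 for Mt3. For the other transporter genes the authors' deposited table gives 0.32 for Slc39a10, 0.22 for Slc30a4, 0.20 for Slc39a6 and 0.11 for Slc39a1. Slc30a1 and Slc39a10 were called at 1 h and not at 8 h, while Mt3, Slc30a4 and Slc39a6 were called at 8 h and not at 1 h.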

How the results depend on the processing

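Of 120 values of the 10 genes under the 4 alternatives, 116 kept their direction and their side of the threshold. The others were the call of Slc39a1 at 1 h in the voom table (-0.11), the loss at a threshold of 0.01 of Slc39a1 (0.11) and Slc30a5 (-0.09) for 8 h against 1 h, and the sign of Mtf1 for 8 h against 1 h, which was not called and became 0.0062 after centring. Much of that count was fixed in advance. Centring kept the adjusted p of the main table, so it could change no call. The filter and the threshold of 0.01 kept the fold changes, so they could change no direction. Only the voom table came from another fit, and there 29 values of the 10 genes kept both and 1 did not. The number of the 10 genes called stayed within 1.5 times in every comparison. At a threshold of 0.01 the count of SLC39 genes called at 1 h was 1 in place of 4, and that of all 15 copper genes 3 (Mt1, Mt2 and Ccs) in place of 6. SLC30 genes called at 8 h numbered 1 in the voom table and 1 at the threshold of 0.01, in place of 2, and 4 in place of 7 at that threshold for 8 h against 1 h. No paired analysis was possible because the tables hold no values of single samples, and for the same reason leaving out a replicate and DESeq2 size factors were not run. Whether the authors' own fit took the pairing by animal into account was not established here. Their p-values and the standard errors derived from them carry that doubt. Depth is unknown and limits the transporter genes below 0 log2 CPM most, whose implied standard errors exceed those of the 10 genes.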

Other observations

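Copper handling genes were also described, since metallothioneins bind copper. All 15 genes listed are in the table, Mt1 and Mt2 among them, and of the 13 others 4 rose and 0 fell at 1 h and 7 rose and 3 fell at 8 h (median 0.04 at 1 h and 0.11 at 8 h, beside 0.01 for all genes at both times). Among all genes 42.7% were called at 1 h and 55.7% at 8 h, and at a threshold of 0.01 only Ccs of these 13 is still called at 1 h. Ccs, the copper chaperone of superoxide dismutase, rose in the authors' deposited table by 0.17 ± 0.05 at 1 h (adjusted p 0.0041) and 0.66 ± 0.05 at 8 h (adjusted p 1.5e-45). Atox1, which hands copper to the copper-exporting ATPases, rose by 0.16 ± 0.06 at 1 h (adjusted p 0.018) and 0.28 ± 0.06 at 8 h (adjusted p 1.6e-06). The metalloreductase gene Steap3 had 0.02 ± 0.14 at 1 h (adjusted p 0.91) and rose by 1.04 ± 0.12 at 8 h (adjusted p 7.1e-18). Atp7b, which encodes a copper-exporting ATPase, fell at 8 h by 0.97 ± 0.15 (adjusted p 2.0e-10). The copper importer gene Slc31a1 rose at 8 h by 0.09 ± 0.04 in the authors' deposited table (adjusted p 0.020).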
